A study of Homo sapiens with 6 samples.

Results

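The Toll-like receptors are the family of pattern recognition receptors encoded by TLR1 to TLR10, and all 10 were found by gene symbol among the 63236 genes of the deposited table. They were divided by where the protein is known to work, with TLR1, TLR2, TLR4, TLR5, TLR6 and TLR10 as the 6 surface receptors and TLR3, TLR7, TLR8 and TLR9 as the 4 endosomal receptors. The RNA came from FUJIOKA, a human acute myeloid leukaemia line carrying a doxycycline-inducible lentiviral shRNA, in 3 libraries with a scrambled control (shNEG) and 3 with an shRNA against SPINK2 (shSPINK2). Both groups therefore share the vector and the inducer, all libraries are of 1 cell line, and no source used here says that they came from separate cultures. The labels list 2 SPINK2 shRNAs without saying which of them a library carries, whereas the methods of the study name shRNA1 alone. For each gene the table holds the mean over all 6 libraries of size-factor normalized read counts, and this mean was the value used here. It pools shNEG and shSPINK2, so the levels below describe FUJIOKA cells across both groups, and no difference between the groups is given. In RNA of whole cultures, fewer expressing cells and less RNA in each cell cannot be told apart.

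Toll-like receptors bind conserved parts of microbes through leucine-rich repeats and signal through a cytoplasmic TIR domain, which recruits the adaptors MYD88 or TRIF (encoded by TICAM1). Surface members recognise bacterial lipids and proteins, and several of them work only as pairs or with a partner protein, whereas endosomal members recognise nucleic acids and depend on the chaperone UNC93B1 to leave the endoplasmic reticulum. Monocytes and macrophages are known for TLR4 with CD14 and MD-2 (encoded by LY96) and for TLR2 with TLR1 or TLR6, and plasmacytoid dendritic cells for TLR7 and TLR9.

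The 2 shRNA targets that the labels give are shown because the treatment is an shRNA against SPINK2, and no base is in capitals because no part of them is compared.

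shRNA1: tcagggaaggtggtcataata

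shRNA2: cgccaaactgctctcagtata

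Both 21-base targets lie in the coding sequence of the canonical SPINK2 transcript of GENCODE release 44, and 0 Toll-like receptor transcripts held either in full. The longest stretch shared with a receptor was 8 bases for shRNA1, in TLR6, and 9 bases for shRNA2, in TLR8. SPINK2 (ENSG00000128040.10), on chromosome 4 from 56809860 to 56821742 (GRCh38), had a mean of 32.3 normalized counts. Its reads in single libraries could be recovered from that mean. Where a single read in a single library is all a gene has, its mean depends on the size factor of that library and nothing else, and the 6 size factors obtained from such genes ran from 0.985 to 1.03. With them, the reads of a gene of low mean are the whole numbers that give its mean to the last digit. The 6 libraries, lettered A to F by rising size factor, held 6, 53, 63, 56, 9 and 7 SPINK2 reads. The mean does not say which letter is shNEG or shSPINK2, and no group was assigned from these reads, so the knock-down was not checked against the labels.

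Of the fixed myeloid and progenitor markers, 7 of 8 had a mean of at least 10, with CEBPA at 32860, SPI1 at 10670 and CD33 at 7777 normalized counts. The exception was KIT at 0.666, and CD34 stood at 19.6. Of the markers of mature monocytes and macrophages, 1 of 5 reached a mean of 10, namely CD163 at 12.8, while FCGR3A was listed at 0. None of the 4 T cell markers, whose highest mean was 4.29, and 0 of 3 erythroid markers reached it. Among markers of B cells and plasmacytoid dendritic cells, CD79A stood at 183 and CLEC4C at 20.7, whereas LILRA4 was at 4.98 and MS4A1 at 0.333. Among epithelial markers 1 of 4, KRT8 at 96.2, reached it, and EPCAM and KRT18 were listed at 0. The part of these genes in the receptor levels was not tested. The means sum to 38425214, which is the average normalized depth of a library.

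TLR4 accounted for most Toll-like receptor RNA. Its mean was 5213 normalized counts, which is 88.8% of all counts of the family, and TLR1 (331), TLR7 (193), TLR6 (97.9) and TLR5 (22.2) followed. TLR8, TLR3, TLR10 and TLR9 had means of 5.97, 2.66, 2.66 and 2.65, and TLR2 a mean of 0.333. Thus 5 of 10 members reached a mean of 10, 4 of the 6 surface receptors and 1 of the 4 endosomal receptors. The share of all genes at that mean was not computed, so this count and those of the marker and pathway lists have no background. Of the 63236 genes, 31016 were listed at 0. To compare genes, each mean was divided by the length of the gene's canonical transcript in kilobases. The intervals given with these levels are 95% exact Poisson intervals on the reads of all 6 libraries, which cover counting error only, since no molecular identifiers are described and reads are not independent molecules.

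**Figure D1:**
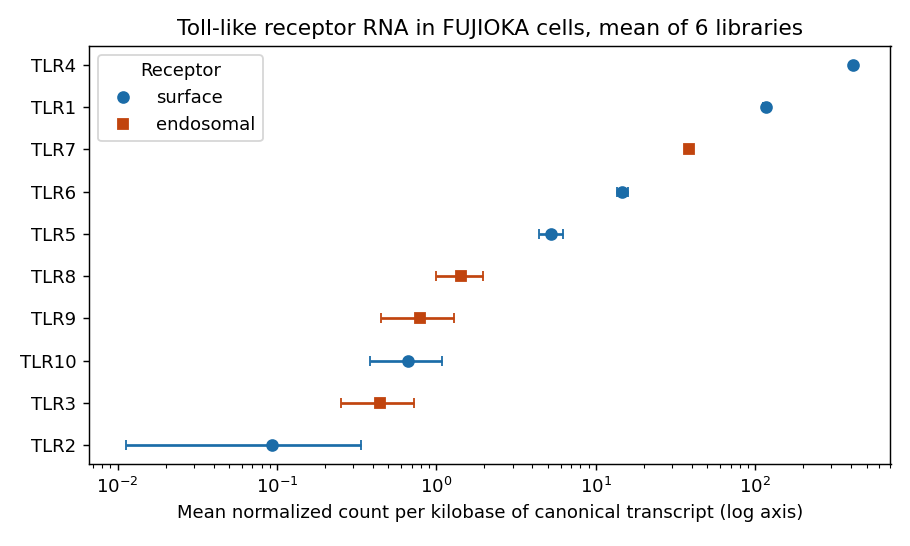
Mean normalized count per kilobase of canonical transcript (horizontal log axis) for the 10 Toll-like receptors, with 95% Poisson intervals as bars, circles for surface and squares for endosomal receptors. TLR4 at 411 stands above TLR1 at 116 and TLR7 at 38.5, and the intervals of TLR8, TLR9, TLR10 and TLR3 overlap from 1 gene to the next.

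Among the surface receptors, TLR4 (ENSG00000136869.13), the lipopolysaccharide receptor, lies on chromosome 9 from 117704175 to 117724735. Its level was 411 normalized counts per kilobase (interval 407 to 416), from about 31280 reads over a canonical transcript of 12677 bases. This level exceeded that of 70.9% of 19708 protein-coding genes, whose median was 65.5 per kilobase. TLR1 (ENSG00000174125.7), which pairs with TLR2 to bind triacylated lipopeptides, lies on chromosome 4 from 38790677 to 38856817 and had a level of 116 per kilobase (111 to 121). It was the only other member above the median protein-coding gene. The level of TLR4 was 3.54 times that of TLR1 (counting interval 3.39 to 3.71).

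TLR6 (ENSG00000174130.12), which pairs with TLR2 to bind diacylated lipopeptides, lies on chromosome 4 from 38822897 to 38856817. Its 590 reads gave 14.6 per kilobase (13.5 to 15.9). In libraries A to F its normalized reads were 80.2, 128, 110, 94.7, 96.1 and 78.4, highest in B and lowest in F. TLR5 (ENSG00000187554.11), the flagellin receptor, lies on chromosome 1 from 223109404 to 223143248 and had 5.25 per kilobase (4.40 to 6.21). Its normalized reads were 30.4, 26.0, 16.0, 12, 21.8 and 27.1, lowest in D and highest in A. The highest library exceeded the lowest 2.54-fold for TLR5 and 1.63-fold for TLR6. The variance over the mean of the 6 values, which is 1 on average where counting is the only error, was 3.61 for TLR6 and 2.25 for TLR5. TLR6 stood above TLR5 per kilobase in 6 of 6 libraries, by 2.79 times in the mean (2.31 to 3.39).

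TLR10 (ENSG00000174123.10), a member without an agreed ligand, lies on chromosome 4 from 38772238 to 38782990. It had 16 reads in all, which were 2, 1, 5, 4, 3 and 1 in libraries A to F, or 0.666 per kilobase (0.381 to 1.08). TLR2 (ENSG00000137462.6), the shared partner of TLR1 and TLR6 in lipopeptide binding, lies on chromosome 4 from 153684070 to 153706260. It had 2 reads in all, 1 each in B and C, and 4 libraries were at 0. Per kilobase this was 0.0927 (0.0112 to 0.335), so TLR2 ranked last of the family, below both of its partners.

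Among the endosomal receptors, TLR7 (ENSG00000196664.4), a receptor for single-stranded RNA, lies on chromosome X from 12867072 to 12890361 and led with 38.5 normalized counts per kilobase (36.4 to 40.8). TLR8 (ENSG00000101916.11), its neighbour on chromosome X from 12906620 to 12923169 and likewise a receptor for single-stranded RNA, had 1.42 per kilobase (0.992 to 1.96). The level of TLR7 was 27.2 times that of TLR8. The TLR8 reads were 8, 6, 7, 2, 6 and 7 in libraries A to F, with D the lowest, and their normalized variance over mean was 0.741.

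TLR3 (ENSG00000164342.12), the receptor for double-stranded RNA, lies on chromosome 4 from 186068911 to 186088073. It had 5, 1, 3, 1, 4 and 2 reads, or 0.443 per kilobase (0.253 to 0.719). TLR9 (ENSG00000239732.3), the receptor for unmethylated CpG DNA, lies on chromosome 3 from 52221080 to 52225645 and had 1, 6, 2, 2, 2 and 3 reads, or 0.791 per kilobase (0.452 to 1.28). The TLR9 value is uncertain. In GENCODE release 44 the gene ENSG00000173366 shares 3341 exonic bases with it on the same strand, 99.7% of the TLR9 transcript, and is listed at a mean of 0.167. Whether reads that fall in both genes were counted is not given in the sources used here.

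**Figure D2:**
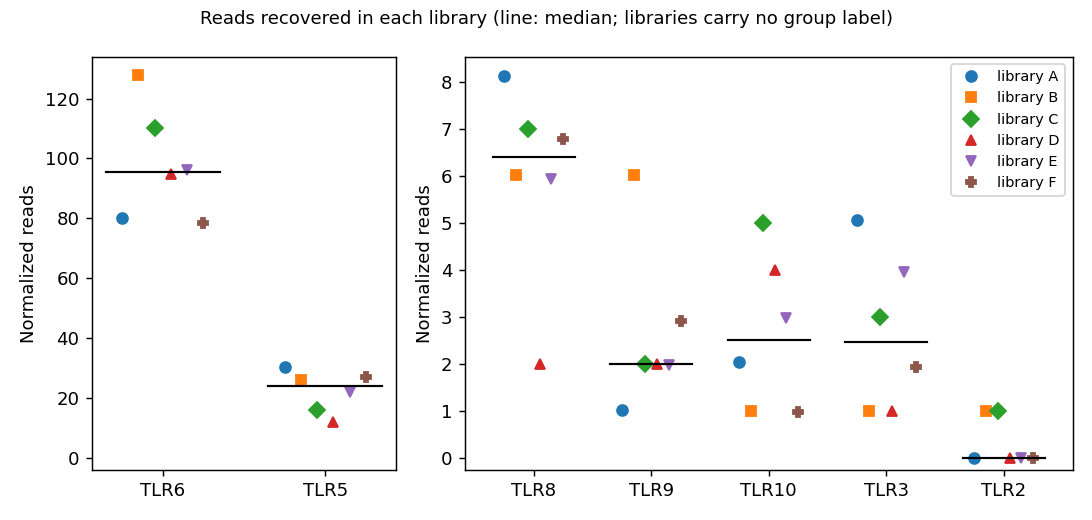
Normalized reads (vertical axis) of the 7 Toll-like receptors whose reads could be recovered, 1 marker per library A to F, with the median of the 6 libraries as a line. TLR6 lies between 78.4 and 128 and TLR5 between 12 and 30.4, with no overlap between them, whereas the values of TLR9, TLR10 and TLR3 overlap one another.

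For the other 3 members no library values are given. The mean of TLR7 had 2 whole-number solutions and that of TLR1 had 24, and TLR4 was not searched. In the order by level per kilobase, each of TLR4, TLR1, TLR7, TLR6, TLR5 and TLR8 exceeded the next with a counting interval of the ratio above 1, except TLR8 over TLR9, at 1.79 (0.969 to 3.46). TLR9 over TLR10 was 1.19 (0.555 to 2.53) and TLR10 over TLR3 was 1.51 (0.705 to 3.22). Their library values overlapped, with TLR8 above TLR9 in 4 libraries, TLR9 above TLR10 in 2 and TLR10 above TLR3 in 4. Further apart in the order, TLR8 exceeded TLR10 by 2.13 times (1.15 to 4.10), in 5 of 6 libraries, and TLR3 by 3.20 times (1.73 to 6.18), in 6 of 6. TLR9 over TLR3 was 1.79 (0.836 to 3.82). The place of TLR9 beside TLR8, and the order of TLR9, TLR10 and TLR3, were therefore not resolved at this depth. TLR3 over TLR2 was 4.77 (1.12 to 42.8), with TLR3 higher in 5 of 6 libraries.

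Summed per kilobase, the surface receptors reached 548 and the endosomal receptors 41.2, a ratio of 13.3, so that surface receptors held 93.0% of the family's level. The surface sum rested on TLR4 and the endosomal sum on TLR7. With TLR4 left out, the 5 other surface receptors together stood at 137, of which TLR1 held 116, and this was 3.32 times the endosomal sum. With TLR7 left out as well, the other 3 endosomal receptors reached 2.65. By the median member, the surface receptors had 9.93 and the endosomal receptors 1.10 per kilobase. Since the TLR9 value is uncertain, these were also computed without it, which gave an endosomal median of 1.42 and a ratio of sums of 13.6. Leaving out an endosomal member can only lower the endosomal sum, so this does not cover TLR9 reads that may have gone uncounted. In a comparison added after seeing which reads could be recovered, limited to the 7 members with library values, the 4 surface receptors summed to between 18.0 and 25.8 per kilobase and the 3 endosomal receptors to between 1.23 and 3.38. These sums leave out the highest members, TLR4, TLR1 and TLR7, because reads were taken only for means under 100. Those 3 members had 411, 116 and 38.5 per kilobase, so the sums below do not describe the whole of either side. The limit kept TLR6, at a mean of 97.9, and dropped TLR7, at 193, whose 38.5 per kilobase exceeds each of these surface sums. The order of the sides in these sums therefore depends on that limit and is no support for the order of the full sums. Within this subset the groups of sums did not overlap. The ratio was 6.40, 7.63, 7.89, 14.6, 7.61 and 6.56 in libraries A to F, highest in D where TLR8 was lowest. Without TLR9 this ratio lay between 7.10 and 28.1 in the 6 libraries. No test was made, since members are not replicates and the lettered libraries have no group.

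**Figure D3:**
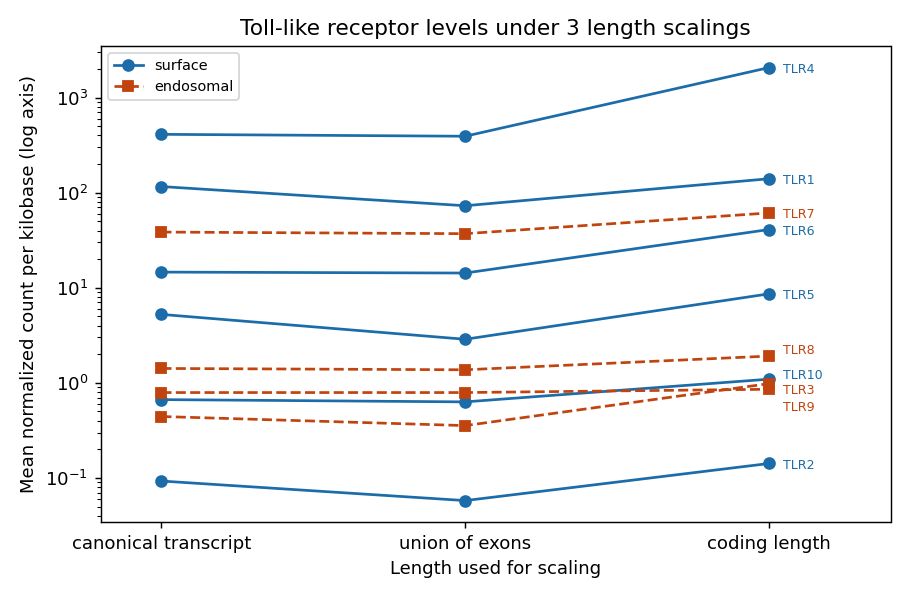
Mean normalized count per kilobase (vertical log axis) of each Toll-like receptor when scaled by the canonical transcript, by the union of its exons or by the coding length, with solid lines for surface and dashed lines for endosomal receptors. TLR4 moves from 411 to 2071 per kilobase with the coding length, and the first 6 places of the order are the same under each scaling.

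The length used for scaling mattered most for TLR4, whose coding sequence of 2517 bases is a small part of its transcript. Scaled by coding length, TLR4 stood at 2071 per kilobase, 14.8 times TLR1, and the surface sum at 34.8 times the endosomal sum. The first 6 places, from TLR4 to TLR8, were the same under all 3 scalings and without scaling, while TLR9, TLR10 and TLR3 changed places with the coding length.

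Members that lie together in the genome differed in level. TLR10, TLR1 and TLR6 occupy chromosome 4 from 38772238 to 38856817, and per kilobase TLR1 stood 7.94 times above TLR6 and TLR6 21.9 times above TLR10. Reads of TLR1 and TLR6 can be hard to place, since their coding sequences were 77.9% identical over aligned bases, the highest of 45 pairs (median 61.7%, lowest 54.5%). TLR6 and TLR10 followed with 66.0%. The longest identical stretch of TLR1 and TLR6 was 218 bases, longer than a read of 150 bases. A 30-base window at its end is shown because a read lying wholly within the stretch is the same for both genes. The reads were paired, so a mate outside the stretch can still place such a read. The capital is the base that differs.

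TLR1: ttccaatgtacctgtgagctaGgagaattt

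TLR6: ttccaatgtacctgtgagctaAgagaattt

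These windows are coding sequence on the minus strand of GRCh38, at chr4:38797227-38797256 for TLR1 and chr4:38827854-38827883 for TLR6. Of all 150-base windows of the canonical transcripts, 2.55% of those of TLR1 and 1.05% of those of TLR6 occurred in the other gene. In TLR2, TLR3, TLR5, TLR7, TLR8 and TLR10 none occurred in a transcript of another gene. In TLR4 1.45% did, all in ENSG00000285082, which the table does not list, and in TLR9 96.3% did, all in ENSG00000173366. These shares are of single windows, and the mate of a read was not taken into account. TLR8-AS1, an antisense gene at TLR8, was listed at a mean of 3.28 and shares 0 exonic bases with it.

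The partners of the receptors were unevenly present. Of 6 co-receptors and surface partners, 3 reached a mean of 10. The highest per kilobase was CD36, a scavenger receptor that assists TLR2 with TLR6, at 248 (interval 242 to 253). LY86 (MD-1) and CD180 (RP105), which form a complex of their own related to that of TLR4, had 205 and 29.8. By contrast LY96, encoding the MD-2 protein that TLR4 needs to bind lipopolysaccharide, had 3 reads in all 6 libraries. That was 0.891 per kilobase (0.184 to 2.61), beside 411 for TLR4. CD14, which passes lipopolysaccharide to that complex, had 3, 2, 2, 8, 0 and 2 reads in libraries A to F, highest in D. LBP, the serum protein before CD14 in this chain, had 25 reads.

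Of the genes for folding, trafficking and cleavage of the receptors, 9 of 10 had a mean of 10 or more, a count without a background. The median of all 10 was 991 per kilobase, against 65.5 for protein-coding genes. HSP90B1, the chaperone of the endoplasmic reticulum that folds most of these receptors, had 14210, its co-chaperone CNPY3 4140 and the protease gene CTSB 2537. UNC93B1 stood at 1519 and TASL, which links endosomal receptors to IRF5, at 1149 per kilobase. CTSL, an endosomal protease gene, was listed at 0.

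Of the 6 TIR adaptor genes 5 reached a mean of 10. PIK3AP1 (BCAP) had 1710 and MYD88 1556 per kilobase, TICAM1 had 236, and TIRAP, the bridge from TLR2 and TLR4 to MYD88, had 147. TICAM2 (TRAM), which bridges TLR4 to TRIF, had 7 reads, or 1, 2, 2, 0, 1 and 1 in libraries A to F, and 0.363 per kilobase (0.146 to 0.748). Exons shared with other genes were looked for in the receptors only. Whether TICAM2 or other pathway genes lost reads to an overlapping gene, as is possible for TLR9, was therefore not tested. Of the kinases and ubiquitin ligases 17 of 18 reached a mean of 10, led by IRAK1 at 2240, BTK at 1778 and UBE2N at 1325, and PELI1 was listed at 0. Of the 8 inhibitors 7 reached it, with SIGIRR at 647, NFKBIA at 619 and TOLLIP at 591, and all 9 transcription factors did, with IRF3 at 2670, RELA at 1658 and IRF5 at 1435 per kilobase.

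Of 10 response genes 5 reached a mean of 10. TNF led with 145 per kilobase, the chemokine gene CXCL8 followed with 107, and IL1B had 42.4. IFNB1 had 4 reads and IL12B 1 read in all, and IL6 was listed at 0. The median per kilobase was 10.5 for response genes and 16.0 for co-receptors, against 610 for kinases and ligases and 191 for adaptors.

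**Figure D4:**
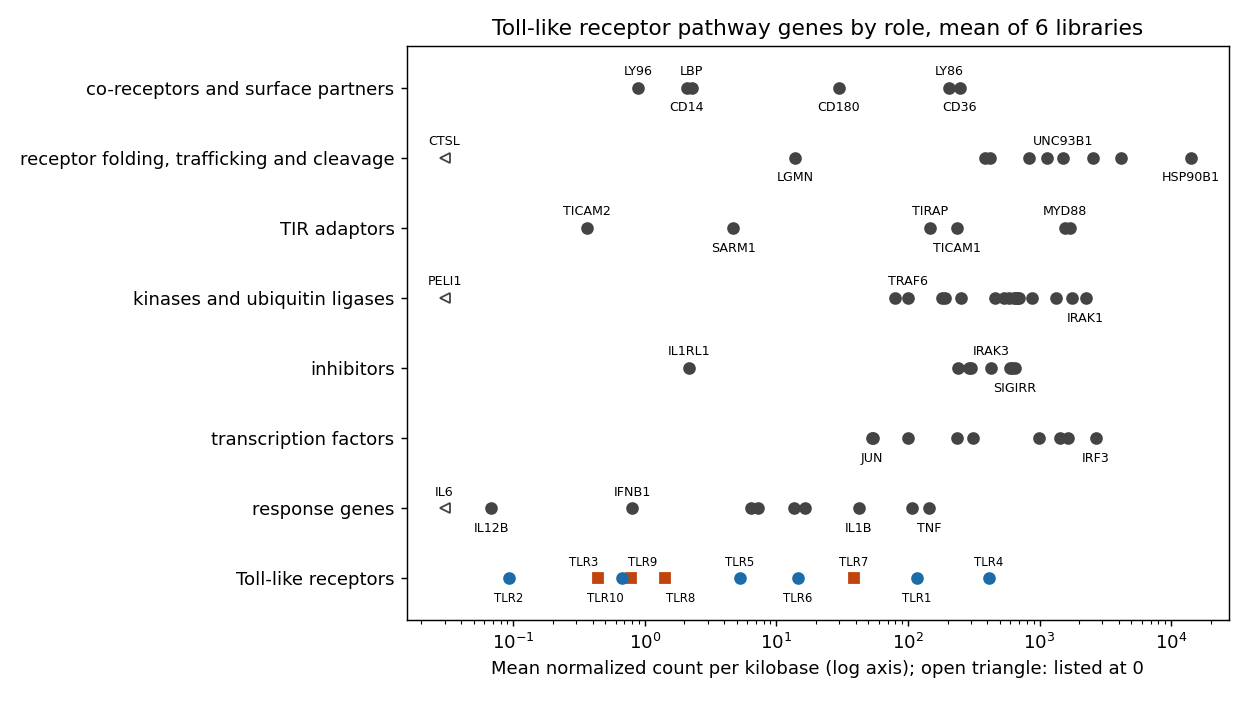
Mean normalized count per kilobase (horizontal log axis) of 67 pathway genes in 7 roles and of the 10 Toll-like receptors, 1 marker per gene, with open triangles for genes listed at 0. Kinases and trafficking genes lie mostly above 100, whereas LY96 at 0.891 and TICAM2 at 0.363 lie among the low receptors, far to the left of TLR4 at 411.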

How the data were processed

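Per the submitters' processing notes and the methods, the authors aligned paired reads with STAR 2.7.11 to hg38, counted them per gene with featureCounts and normalized them with DESeq2 1.40.0. The strandedness and annotation of the counting are not given in the sources used here. The deposited value used is a signal, the authors' mean over 6 libraries of counts divided by size factors. The table's other columns hold the authors' comparison of the groups (fold change, error, statistic, p-values) and were not used, so no test between groups was made.

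Lengths, coordinates and transcripts came from GENCODE release 44, matched by Ensembl identifier without version. Whole reads were taken only for means under 100, although solutions were also counted for TLR7 and TLR1. The search ran within 50% of the mean or 6 square roots, whichever was wider, to 0.8 of the last of 15 digits. The tolerance, the limit of 100 and the means of 20 to 45 used to refine the size factors were set after trying others on these data, and a solution is single only within its window. On simulated data 173 of 192 genes came back, 0 were wrong and the rest gave no solution. The members and lists were chosen with earlier results of these data known. Named genes are all members, SPINK2, the 3 highest per role and those with a mean under 1, and other pathway and marker genes were named after their values were seen. The value of a further gene on the marker lists is not reported here. Tools were scipy 1.17.1, Biopython 1.88, numpy 2.4.6, matplotlib 3.10.9, Python 3.11.15 and pandas 2.3.3.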

Additional observations from a re-analysis of the deposited data

How the results depend on the processing

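The surface sum stayed above the endosomal sum under every alternative tried. From a ratio of 13.3 it moved to 34.8 with the coding length, to 9 for the median member, to 51.6 without the highest member of each side and to 3.32 with TLR4 on neither side. Leaving out both TLR4 and TLR1 was not among the alternatives. The 4 other surface receptors summed to between 18.0 and 25.8 per kilobase in single libraries, below the 41.2 of all endosomal receptors in the mean. TLR4 over TLR1 moved from 3.54 to 5.38 with the union of exons and to 14.8 with the coding length. The count of receptors at the level limit moved from 5 to 9 with a minimum mean of 1 and to 10 without a limit. Leaving out each library in turn gave ratios of 7.21 to 8.11 for the members with library values, against 7.78 over all, a comparison added after seeing the data. Without TLR9, likewise added, that ratio moved to 11.1, a direction fixed by leaving out an endosomal member. The SD over libraries of the ratio for members with library values also served as the spread for the full sums, which have none of their own. That SD leaves out TLR4, TLR1 and TLR7, so it does not measure the spread of the full sums. Of 20 alternative lengths for single receptors, 10 left the level within its counting interval and 10 moved it outside. The count of 7 members with a single solution was the same with a wider window, a tolerance 10 times larger and, added later, size factors refined on genes of means 3 to 10. Leave-one-out values of the full sums were not run, since 3 members have no library values. No paired analysis was possible because the table gives no value for a labelled sample. Depth limits TLR2, TLR3, TLR8, TLR9 and TLR10, which rest on 2 to 36 reads each.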

Other observations

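Values recovered in the lettered libraries were also sorted without regard to group, for genes picked after their values were seen. For SPINK2 the normalized reads were 6.09, 6.78, 8.92, 53.1, 55.8 and 63.0, and the largest gap, from 8.92 to 53.1, took 77.6% of the range. For IL1B they were 42.6, 42.6, 48.7, 78.1, 81.8 and 89.9, with the largest gap at 62.0% of the range, and for CXCL10 7.00, 8.97, 11, 19.3, 23.8 and 26.1, with 43.2%. Sorting hides the letters. Libraries A, E and F held the values below the gap for SPINK2 and IL1B, but those above it for CXCL10. For TLR6 and TLR5 the largest gap took 36.6% and 31.4% of the range. The libraries have no group in this form, and the largest gap to be found in values without any split was not computed, so no comparison was made.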
